A study of Mus musculus with 4 samples.

Results

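The transcripts of 9 genes of naive and recirculating T cells were followed in cells labelled as skin regulatory T cells: Ccr7, Klf2, S1pr1, Lef1, Tcf7, Satb1, Bach2, Il7r and Il6ra. They were found by gene name among the 55487 genes of the deposited tables, each as 1 gene ID. The libraries came from the dorsal skin of shaved mice given psoriasis-like dermatitis with a daily dose of 60 mg of Aldara, a cream that holds 5% imiquimod, which activates the receptor TLR7. The UVB group (2 libraries) came from mice that also received 3 exposures to narrow-band ultraviolet B, 1 every other day, and the non-UVB group (2 libraries) from mice without irradiation. Imiquimod is stated for the mice of the study as a whole and not library by library. The labels do not state strain, genotype, sex, age, the sorting gate or pooling of animals. Nor do they say that replicates 1 and 2 are separate animals, so a p-value here reflects the spread between libraries alone, and that spread may be technical.

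Naive and central memory T cells circulate between blood and lymph nodes. They enter nodes with the help of CCR7, a receptor for the chemokines CCL19 and CCL21, and they leave along a gradient of sphingosine 1-phosphate read by the receptor S1PR1. KLF2 is a transcription factor of quiescent T cells that sustains S1pr1, while TCF1 (Tcf7), LEF1, SATB1 and BACH2 are nuclear factors linked with naive or stem-like T cell states. The receptor chains for interleukin-7 (Il7r) and interleukin-6 (Il6ra) complete the set, and activation or residence in a tissue is known to lower many of these transcripts.

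Values are TPM, a share of all transcripts that is scaled for gene length and has 1 total in every library, so levels of different genes can be set side by side. At the depth of these libraries, 1 read on a transcript of 1 kb was worth 0.0369 and 0.0612 TPM in UVB replicates 1 and 2, against 0.0442 and 0.0583 TPM in non-UVB replicates 1 and 2. Genes at 1 TPM or more numbered 10317 and 10227 with UVB, against 7825 and 8033 without UVB. The share of haemoglobin genes was 11.7% in non-UVB replicate 1 and at most 0.441% elsewhere. Both libraries numbered 1 stood apart from both numbered 2 in some of their cell markers. The summed markers of gamma-delta T cells were 10300 and 309.5 TPM in UVB replicates 1 and 2, against 11125 and 180.1 TPM in non-UVB replicates 1 and 2. The defining Treg gene Foxp3 was at 3.49 and 19.3 TPM in the UVB libraries against 0 and 19.4 TPM in the non-UVB libraries. The label of regulatory T cells therefore had little or no Foxp3 transcript behind it in the libraries numbered 1. This does not hold for all markers of CD4 and regulatory T cells. Their list of 15 summed to 8076 and 7078 TPM in the UVB libraries against 9666 and 9970 TPM in the non-UVB libraries, so the numbers overlapped. Of the 15, 9 had a higher and 6 a lower mean in number 2. In bulk RNA, fewer cells of a type and less RNA per cell cannot be told apart.

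Of the 9 genes, 7 passed the filter of 1 TPM in at least 2 libraries and were tested among 10286 genes. Lef1 and Bach2 did not pass and are described by their values. S1pr1 was higher and Il6ra lower in both UVB libraries than in both non-UVB libraries, and none of the other 7 genes differed by 2 log2 or more in the same direction within both replicate numbers. None of the 7 tested genes passed limma's test at an adjusted p under 0.05, where the background over all tested genes was 0%. At an unadjusted p under 0.05 there were 2 members, S1pr1 and Il6ra, against 11.3% of all tested genes (9.97% higher and 1.37% lower with UVB). The values of the groups were separated for 3 of the 7, S1pr1 and Tcf7 on the higher side and Il6ra on the lower side, against 32.9% of all tested genes (23.2% higher and 9.71% lower with UVB). Il6ra entered the test only through the non-UVB libraries, so its place in these counts follows in part from the filter.

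**Figure D1:**
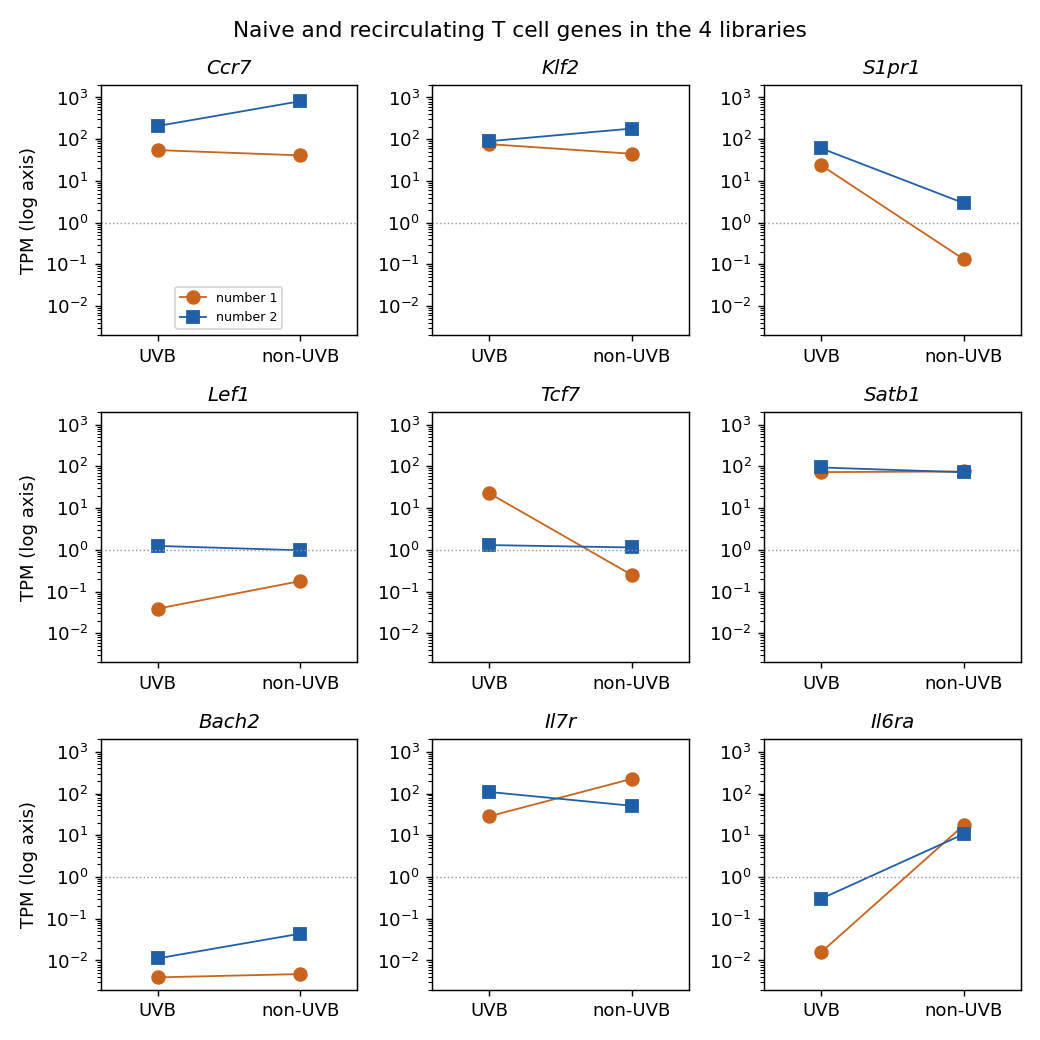
TPM on a log axis for the 9 genes, with UVB left and non-UVB right; circles are libraries numbered 1, squares those numbered 2, lines join libraries of 1 number, and the dotted line is 1 TPM. S1pr1 is higher and Il6ra lower in both UVB libraries, Ccr7 is higher in both libraries numbered 2, and Satb1 lies between 72.3 and 94.2 TPM in all 4.

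The 200 bases that end 50 bases before the RefSeq start are shown for 3 of the genes, to set the promoter of the member that was lower in both UVB libraries (Il6ra) beside those of the factor Klf2 and of the most even member (Satb1). RefSeq promoter sequences of GRCm38.p6 were found for 7 of the 9 genes; Ccr7 and S1pr1 have no entry in the table used. Each is printed 5′ to 3′ on the strand of the gene, and capitals mark matches, on either strand, to CACCC (bound by KLF factors), GGGCGG (the GC box), CTA and TAG with 4 bases between (MEF2), GTAAACA (FOXO), CTTTGA (TCF/LEF) or TTCNNNGAA (STAT).
Il6ra, chr3:89913247-89913446, minus strand: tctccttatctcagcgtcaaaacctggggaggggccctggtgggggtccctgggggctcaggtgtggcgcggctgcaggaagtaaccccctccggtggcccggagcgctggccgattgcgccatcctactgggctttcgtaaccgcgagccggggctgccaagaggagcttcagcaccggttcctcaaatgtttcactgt
Klf2, chr8:72318812-72319011, plus strand: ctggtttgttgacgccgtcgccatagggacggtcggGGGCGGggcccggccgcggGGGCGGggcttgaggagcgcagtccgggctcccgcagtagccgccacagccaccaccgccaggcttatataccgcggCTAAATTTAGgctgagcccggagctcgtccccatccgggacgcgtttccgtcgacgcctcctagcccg
Satb1, chr17:51833341-51833540, minus strand: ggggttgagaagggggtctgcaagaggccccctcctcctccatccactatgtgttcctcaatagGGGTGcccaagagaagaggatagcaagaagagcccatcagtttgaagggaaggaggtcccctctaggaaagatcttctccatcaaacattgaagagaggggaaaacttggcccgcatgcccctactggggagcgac
The Klf2 window held 2 GC boxes and 1 MEF2-type match, the Satb1 window 1 CACCC match, and the Il6ra window none of the 6 motifs. Over 32851 windows of the same length, 44.4% held CACCC, 24.6% a GC box, 2.6% the MEF2 letters, 2.6% the FOXO letters, 11.8% the TCF/LEF letters and 5.8% the STAT letters. A match describes letters only.

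S1pr1, the receptor that guides lymphocyte exit from lymph nodes, was higher with UVB within both replicate numbers. The gene (ENSMUSG00000045092, chromosome 3, 115710433 to 115715072, minus strand, GRCm38) was at 23.8 and 60.7 TPM in UVB replicates 1 and 2, against 0.134 and 2.96 TPM in non-UVB replicates 1 and 2. Both UVB libraries lay above both non-UVB libraries. S1pr1 has 1 annotated transcript, so its depth could be read from the coverage column: about 1966 and 3020 reads with UVB, against about 9 and 155 without UVB. On the log2(TPM + 1) scale, which understates differences of low genes, the difference was 4.21 ± 1.33 (SE, n = 2 per group). This did not pass the test (limma adjusted p = 0.362, Benjamini-Hochberg over all tested genes). On this scale it was 4.45 between the libraries numbered 1 and 3.96 between those numbered 2. As a ratio of TPM it was less alike, 177.3 within number 1 and 20.5 within number 2. The ratio within number 1 rests on the about 9 reads of non-UVB replicate 1. A difference of at least 2 log2 in the higher direction within both numbers was seen for 9.68% of all tested genes, so a pattern of this kind was common in these libraries.

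Few genes lay close to S1pr1 over the 4 libraries. Of 4660 genes that averaged 20 TPM or more, 4 had a centred log2 profile over the 4 libraries within a root mean square distance of 0.5. This distance is not scaled to the size of the differences, so such a count depends on how much a gene varied. Ldhb, a lactate dehydrogenase subunit, lay at 0.24, with 22.9 and 70.1 TPM in the UVB libraries against 0 and 1.86 TPM in the non-UVB libraries. Dbf4, a regulatory subunit of the replication kinase Cdc7, lay at 0.36, with 37.4 and 76.0 TPM with UVB, against 0.014 and 2.32 TPM without UVB. Both genes were picked for their closeness to S1pr1 over these same libraries, so their high values with UVB follow from that choice. Endothelial cells also transcribe S1pr1, and the values of their markers were therefore set beside it. Their list summed to 40.6 and 28.0 TPM in the UVB libraries against 132.8 and 7.39 TPM in the non-UVB libraries. In every library 10 of its 12 genes stayed under 1 TPM, and Cdh5, Kdr and Tie1 were listed at 0 in all 4. Pecam1 was at 40.6 and 27.3 TPM in the UVB libraries against 82.7 and 7.17 TPM in the non-UVB libraries. Egfl7 was at 0 and 0.109 TPM in the UVB libraries against 50.0 and 0.223 TPM in the non-UVB libraries. The sum is thus almost wholly that of Pecam1 and Egfl7 and is a weak measure of endothelial cells. The part of endothelial cells in the S1pr1 values was not tested.

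Il6ra, the ligand-binding chain of the interleukin-6 receptor, showed the opposite. The gene (ENSMUSG00000027947, chromosome 3, 89864059 to 89913196, minus strand) was at 0.016 and 0.302 TPM in UVB replicates 1 and 2, against 17.3 and 10.6 TPM in non-UVB replicates 1 and 2. The UVB values lay below 1 TPM and the groups did not overlap. Spread over all exons, the TPM values would correspond to 3.7 and 42.6 reads in the UVB libraries and to 3376 and 1579 in the non-UVB libraries. The coverage column was nearly equal in non-UVB replicates 1 and 2, at 17.95 and 18.26, so the read number of non-UVB replicate 1 is uncertain. The difference was -3.66 ± 0.83 log2 (limma adjusted p = 0.223), at -4.17 within number 1 and -3.16 within number 2. Il6ra passed the filter only through the non-UVB libraries. Its entry to the test thus already required values of 1 TPM or more there, and the test and shares are no independent support. A difference of at least 2 log2 in the lower direction within both numbers was seen for 1.65% of all tested genes. An annotated antisense gene, Gm42809, shares 242 exon bases with Il6ra and was at 0 and 0.173 TPM in the UVB libraries against 0 and 65.2 TPM in the non-UVB libraries. The labels do not state whether the libraries keep strand, so reads of the shared bases could not be assigned in non-UVB replicate 2. Gm42809 and Il6ra were at 0 and 17.3 TPM in non-UVB replicate 1, and at 65.2 and 10.6 TPM in non-UVB replicate 2. The part of shared reads in the Il6ra values was not tested.

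Myeloid cells also transcribe Il6ra. Markers of macrophages and monocytes summed to 11161 and 4296 TPM in the UVB libraries against 5463 and 873.4 TPM in the non-UVB libraries. The part of these cells in the Il6ra values was not tested. Il6st, the shared signalling chain gp130, was at 0.53 and 4.36 TPM in the UVB libraries against 1.04 and 57.3 TPM in the non-UVB libraries. Il6 itself was listed at 0 in all 4 libraries.

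**Figure D2:**
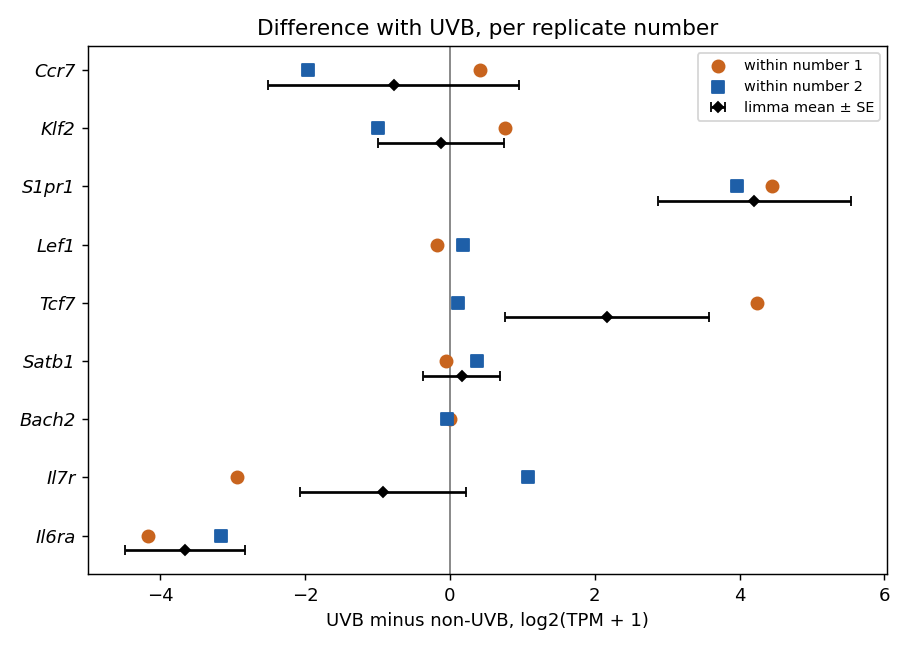
Difference between UVB and non-UVB on the log2(TPM + 1) scale for the 9 genes; coloured symbols are the difference within each replicate number, and black diamonds with bars are limma's mean and SE for the 7 tested genes. S1pr1 (4.45 and 3.96) and Il6ra (-4.17 and -3.16) have both numbers far from 0 on the same side, while Ccr7, Klf2 and Il7r have the numbers on opposite sides.

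Ccr7, the lymph node homing receptor, followed the replicate number more than UVB. The gene (ENSMUSG00000037944, chromosome 11, 99144196 to 99155077, minus strand) was at 54.8 and 207.7 TPM in UVB replicates 1 and 2, against 41.0 and 814.0 TPM in non-UVB replicates 1 and 2. The groups overlapped, and the value in non-UVB replicate 2 was far above the other 3. The difference with UVB was -0.78 ± 1.73 log2 (limma adjusted p = 0.9998), at 0.41 within number 1 and -1.97 within number 2. Between the numbers it was 3.09 ± 0.81 log2 higher in number 2 (limma adjusted p = 0.26), by 1.90 in the UVB libraries and 4.28 in the non-UVB libraries. Its depth was ample, with about 2944 and 6710 reads with UVB, against 1835 and 27633 without UVB.

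Dendritic cells that migrate to lymph nodes also carry CCR7, and 3 of the 12 dendritic cell genes that reached 1 TPM were highest in non-UVB replicate 2 (beside 3471 of the 13885 genes at 1 TPM or more in some library, the same share). Of the other 9, 1 and 4 were highest in UVB replicates 1 and 2 and 4 in non-UVB replicate 1. Zbtb46, a transcription factor of conventional dendritic cells, was at 0 and 10.3 TPM in the UVB libraries against 0.03 and 88.9 TPM in the non-UVB libraries. Ccl22, a chemokine of mature dendritic cells, was at 0 and 11.9 TPM in the UVB libraries against 0.03 and 168.0 TPM in the non-UVB libraries. Fscn1, an actin bundler of mature dendritic cells, was at 0 and 0.369 TPM in the UVB libraries against 0 and 40.9 TPM in the non-UVB libraries. These 3 genes were chosen after their values were seen. Cacnb3, also of migratory dendritic cells, was at 0 and 2.34 TPM in the UVB libraries against 0 and 0.148 TPM in the non-UVB libraries. The whole dendritic cell list summed to 200.8 and 447.6 TPM in the UVB libraries against 342.3 and 423.7 TPM in the non-UVB libraries, with 5 and 9 of its 14 genes at 1 TPM or more in the UVB libraries and 5 and 5 in the non-UVB libraries. The dendritic cell genes Ccl17 and Clec9a were listed at 0 throughout. The part of these cells in the Ccr7 values was not tested. The closest pattern to that of Ccr7 was the small nucleolar RNA Snord118 (distance 0.10), followed by Tnrc6a, a component of microRNA silencing (0.33), and Pdcd4, a translation inhibitor (0.39).

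Ccl21a, a ligand of CCR7 made by lymphatic vessels and lymph node stroma, was at 16.5 and 124.9 TPM in UVB replicates 1 and 2 and listed at 0 without UVB. It was named after its values were seen. The mouse genome holds near-identical Ccl21 copies, so the assignment of its reads is uncertain. Its difference of 5.55 ± 1.45 log2 did not pass the test (limma adjusted p = 0.25), which Ccl21a entered only through the UVB libraries. The other CCR7 ligand, Ccl19, and the scavenging receptor Ackr4 were listed at 0 in every library.

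Klf2, the quiescence factor, was measurable in all 4 libraries and ordered them as Ccr7 did. The gene (chromosome 8, 72319033 to 72321656, plus strand) was at 76.2 and 89.8 TPM in UVB replicates 1 and 2, against 44.8 and 180.1 TPM in non-UVB replicates 1 and 2. Both libraries numbered 2 lay above both numbered 1, and the UVB libraries lay between the non-UVB libraries. The difference with UVB was -0.12 ± 0.87 log2 (limma adjusted p = 0.9998), at 0.75 within number 1 and -0.996 within number 2. That between the numbers was 1.11 ± 0.62 log2, higher in number 2 (limma adjusted p = 0.61). Klf2 and S1pr1 therefore did not share a pattern: the library with the highest Klf2, non-UVB replicate 2, had 2.96 TPM of S1pr1. Patterns near that of Klf2 were common, with 352 of 4660 genes within a distance of 0.5 and Fam177a, Fam177a2 and the chromatin organiser Ctcf the closest, at 0.03, 0.08 and 0.09.

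Il7r, the alpha chain of the interleukin-7 receptor, differed with UVB in opposite ways in the numbers. The gene (chromosome 15, 9505788 to 9530176, minus strand) was at 28.6 and 109.1 TPM in UVB replicates 1 and 2, against 225.5 and 50.9 TPM in non-UVB replicates 1 and 2. Neither the groups nor the numbers were separated. The difference with UVB was -0.93 ± 1.14 log2 (limma adjusted p = 0.9998), at -2.93 within number 1 and 1.08 within number 2. Gamma-delta T cells and innate lymphoid cells carry this receptor too, and their part in the Il7r values was not tested. Innate lymphoid markers summed to 576.4 and 231.5 TPM in UVB replicates 1 and 2, against 627.1 and 284.4 TPM in non-UVB replicates 1 and 2. The sums of gamma-delta T cells are given above. The closest patterns were those of Klf4, a zinc-finger factor of the KLF family, and of Rnf2, a Polycomb ubiquitin ligase, both at a distance of 0.20, and of Ubac2, at 0.27.

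Tcf7, which encodes TCF1, was separated between the groups by 1 library. The gene (chromosome 11, 52252371 to 52283331, minus strand) was at 22.6 and 1.30 TPM in UVB replicates 1 and 2, against 0.25 and 1.14 TPM in non-UVB replicates 1 and 2. UVB replicate 1 was high and UVB replicate 2 hardly exceeded non-UVB replicate 2. The difference was 2.17 ± 1.41 log2 (limma adjusted p = 0.872), at 4.24 within number 1 and 0.10 within number 2. Without UVB replicate 1 it was 0.49. Lef1, the partner of TCF1, did not share this value: the gene (chromosome 3, 131110471 to 131224356, plus strand) was at 0.039 and 1.24 TPM in the UVB libraries against 0.178 and 0.977 TPM in the non-UVB libraries.

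Both libraries numbered 2 had more Lef1 than both numbered 1, and all 4 values were near or under 1 TPM. Hair follicle cells also use LEF1. Keratinocyte markers summed to 504.6 and 4173 TPM in UVB replicates 1 and 2 against 284.7 and 3859 TPM in non-UVB replicates 1 and 2, so they were higher in the libraries numbered 2 as well, and their part in the Lef1 values was not tested. An antisense gene that shares 1208 exon bases with Lef1, Lef1os1, was at 0 and 5.33 TPM in the UVB libraries against 0.0016 and 0 TPM in the non-UVB libraries. Both genes were highest in UVB replicate 2. As strand is not stated, reads of the shared bases could not be assigned there, and their part in the Lef1 values was not tested.

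Satb1, a chromatin organiser of T cells that epidermis also expresses, was the most even of the 9 in TPM. The gene (chromosome 17, 51736187 to 51833290, minus strand) was at 72.9 and 94.2 TPM in UVB replicates 1 and 2, against 75.7 and 72.3 TPM in non-UVB replicates 1 and 2. The highest value was 1.30 times the lowest. The difference with UVB was 0.16 ± 0.53 log2 (limma adjusted p = 0.9998) and that between the numbers 0.15 ± 0.46 log2 (limma adjusted p = 0.979). Scaled to the summed CD3 genes instead, a choice made after seeing the data, it was 1.43 ± 0.48 log2 higher in number 2. Evenness of this kind was common, since 830 of 4660 genes lay within a distance of 0.5, the closest being Taf9-ps, Atpif1 and Supt20 at 0.03, 0.04 and 0.04. Other annotated transcripts that lie within the gene on the same strand and share none of its exon bases were less even. Gm37248 was at 0.00063 and 42.1 TPM in the UVB libraries against 0 and 15.8 TPM without UVB, and 5830444F18Rik at 0.053 and 0.21 TPM in the UVB libraries against 0 and 28.5 TPM in the non-UVB libraries, both named after their values were seen. Gm6934, on the opposite strand and sharing 128 exon bases with Satb1, was likewise named after its values were seen. It was at 0.625 and 0.030 TPM in the UVB libraries against 0 and 9.09 TPM in the non-UVB libraries. The part of shared reads in the Satb1 values was not tested.

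Bach2, a repressor that holds T cells in naive and memory states, was at the limit of detection. The gene (chromosome 4, 32238804 to 32586108, plus strand) was at 0.0039 and 0.011 TPM in UVB replicates 1 and 2, against 0.0047 and 0.044 TPM in non-UVB replicates 1 and 2. Spread over its exons this would be 1.1 and 1.8 reads in the UVB libraries and 1.1 and 7.5 reads in the non-UVB libraries. No difference was detectable at this depth.

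**Figure D3:**
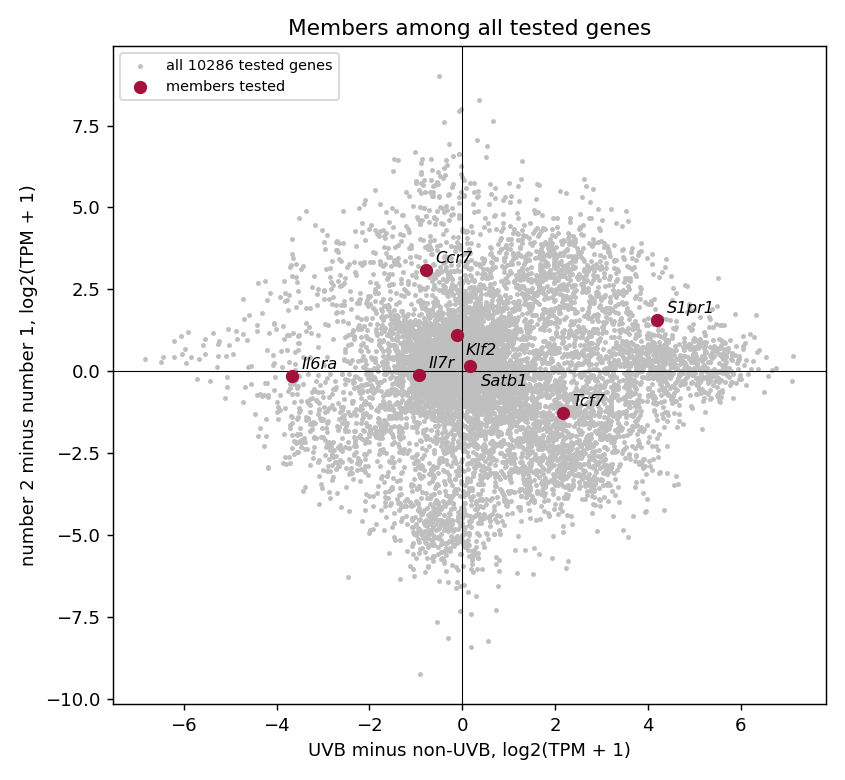
Difference with UVB (x axis) and between the replicate numbers (y axis) on the log2(TPM + 1) scale; grey points are all 10286 tested genes and red points the 7 tested members. S1pr1 and Il6ra lie at 4.21 and -3.66 on the x axis, Ccr7 at 3.09 on the y axis, and Satb1 close to the origin.

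Ordered by mean level in the UVB libraries, Ccr7 was at 131.3 ± 108.1 TPM (SD, n = 2), Satb1 at 83.6 ± 15.04, Klf2 at 83.0 ± 9.63, Il7r at 68.9 ± 56.9, S1pr1 at 42.3 ± 26.1 and Tcf7 at 11.9 ± 15.05 TPM. Lef1 (0.641 ± 0.851), Il6ra (0.159 ± 0.202) and Bach2 (0.0076 ± 0.0052) followed. In the non-UVB libraries Ccr7 was at 427.5 ± 546.6 TPM (SD, n = 2), Il7r at 138.2 ± 123.4, Klf2 at 112.4 ± 95.7, Satb1 at 74.0 ± 2.42 and Il6ra at 14.0 ± 4.68 TPM. S1pr1 (1.55 ± 1.999), Tcf7 (0.696 ± 0.63), Lef1 (0.577 ± 0.565) and Bach2 (0.024 ± 0.028) followed. Neighbours among the first 4 genes of each order did not differ beyond their spread. Il6ra held the 8th place with UVB and the 5th without it, and S1pr1 the 5th place with UVB and the 6th without it.

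Between the replicate numbers, 2 of the 7 tested members did not overlap, Ccr7 and Klf2, both higher in number 2, against 40.9% of all tested genes (22.5% higher and 18.5% lower in number 2). No member differed by 2 log2 or more in the same direction within both groups, as 4.29% of all tested genes did on the higher and 6.53% on the lower side. None passed limma's test, where the background was 0%, and 1 of the 7, Ccr7, had an unadjusted p under 0.05, against 12.5% of all tested genes (5.65% higher and 6.89% lower in number 2). Lef1, outside the test, was also higher in both libraries numbered 2.

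Other genes of naive and central memory T cells had their highest value in UVB replicate 2 in most cases. Of a list of 23, 20 reached 1 TPM in some library, and 14 of these (70.0%) were highest in UVB replicate 2, against 28.7% of the 13885 genes at 1 TPM or more in some library. UVB replicate 1 had the highest value for 0 of the 20, and the non-UVB libraries for 2 and 4. The list was written with earlier results of these data known, so its share beside that of all genes is a description of 1 library and no support. Of the members, 8 reached 1 TPM in some library, and 3 of these (37.5%) were highest in UVB replicate 2, nearer to the share of all genes. None of the 15 markers of CD4 and regulatory T cells was highest in UVB replicate 2. Dapl1, a gene of naive T cells, was at 0 and 126.6 TPM in the UVB libraries and listed at 0 without UVB. Ly6c1, a surface antigen of naive and memory T cells, was at 1.42 and 55.9 TPM in the UVB libraries against 0.48 and 1.16 TPM in the non-UVB libraries. Myb, a transcription factor of stem-like cells, was at 0.18 and 28.5 TPM in the UVB libraries against 0.00094 and 0.68 TPM without UVB, and Klf3 at 0.03 and 21.7 TPM in the UVB libraries against 0.02 and 0.43 TPM without UVB. These 4 genes were named after their values were seen. Dapl1, Myb and Klf3 reached 1 TPM in UVB replicate 2 alone and so were not tested.

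In the same list 14 genes were tested, and 9 had a higher and 5 a lower mean with UVB, with a median of 0.32 log2 beside 0.26 for all tested genes, and none passed the test. Rgs10, a regulator of G protein signalling, was at 147.4 and 235.9 TPM in the UVB libraries against 177.9 and 70.1 TPM in the non-UVB libraries. Ets1, a transcription factor of T cells, was at 170.0 and 232.4 TPM in the UVB libraries against 252.0 and 338.7 TPM without UVB, and the costimulatory receptor Cd27 at 81.4 and 175.8 TPM in the UVB libraries against 178.9 and 463.6 TPM in the non-UVB libraries. For Ets1 and Cd27 both UVB libraries lay below both non-UVB libraries, with differences of -0.55 ± 0.44 and -1.26 ± 0.75 log2 (limma adjusted p = 0.95 and 0.82). The survival factor Bcl2, known to be induced by interleukin-7, was under 1 TPM in all 4 libraries.

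**Figure D4:**
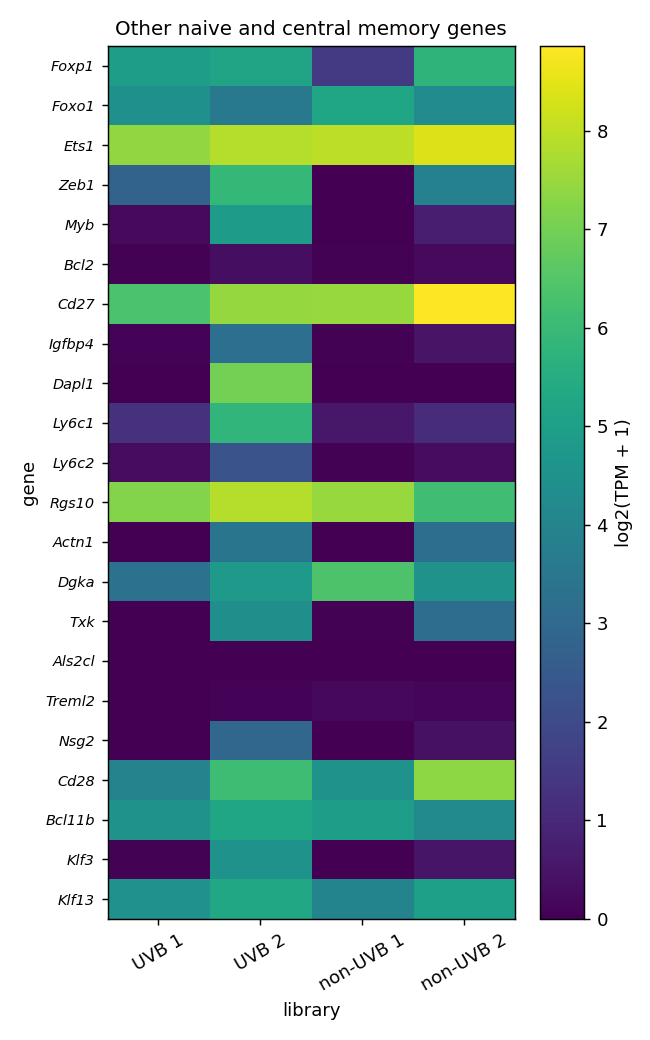
log2(TPM + 1) of 22 of the 23 other naive and central memory T cell genes (rows) in the 4 libraries (columns), UVB libraries left; brighter cells are higher. UVB replicate 2 is the brightest column for Dapl1 (126.6 TPM), Ly6c1 (55.9 TPM), Myb (28.5 TPM) and Klf3 (21.7 TPM).

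Genes of the sphingosine 1-phosphate pathway and of lymph node entry numbered 27, of which 18 were tested, 10 with a higher and 8 with a lower mean with UVB, a median of 0.17 log2 and none past the test. Cd69, an activation antigen whose product binds S1PR1 and removes it from the cell surface, was at 525.3 and 244.3 TPM in the UVB libraries against 439.1 and 643.8 TPM in the non-UVB libraries. The groups overlapped for Cd69, and its difference was -0.57 ± 0.55 log2 (limma adjusted p = 0.99). Gpr183, an oxysterol receptor of lymphocyte migration, was at 190.9 and 15.3 TPM in the UVB libraries against 294.4 and 173.4 TPM in the non-UVB libraries. Gnai2, a G protein subunit downstream of S1PR1 and CCR7, was at 474.3 and 743.3 TPM in the UVB libraries against 406.9 and 662.8 TPM in the non-UVB libraries. S1pr3, S1pr5 and the transporters Spns2 and Mfsd2b were listed at 0 in every library.

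Interleukin-7 and interleukin-6 receptor signalling was represented by 26 genes, of which 21 were tested, 8 with a higher and 13 with a lower mean with UVB, a median of -0.14 log2 and none past the test. Mcl1, a survival factor, was at 261.6 and 157.7 TPM in the UVB libraries against 90.7 and 91.6 TPM in the non-UVB libraries. Both UVB libraries lay above both non-UVB libraries, and the difference was 1.15 ± 0.51 log2 (limma adjusted p = 0.62). Il2rg, the common gamma chain that pairs with Il7r, was at 1551 and 1326 TPM in the UVB libraries against 1820 and 1521 TPM without UVB, which overlapped, and the feedback inhibitor Socs3 at 335.2 and 176.4 TPM in the UVB libraries against 235.9 and 255.7 TPM without UVB. Of the ligands, Il7 was listed at 0 in every library, and Tslp reached at most 0.451 TPM, in non-UVB replicate 2.

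Partners of TCF1 and LEF1 in the Wnt pathway numbered 24 in the tables, of which 12 were tested, 8 with a higher and 4 with a lower mean with UVB, a median of 0.34 log2 and none past the test. Myc, a Wnt target, was at 124.4 and 67.95 TPM in the UVB libraries against 67.8 and 116.5 TPM in the non-UVB libraries. Hdac1, a histone deacetylase, was at 202.5 and 118.9 TPM in the UVB libraries against 94.9 and 1.52 TPM without UVB, and its relative Hdac2 at 80.7 and 0.70 TPM in the UVB libraries against 152.6 and 153.3 TPM without UVB. These paralogs were thus separated in opposite directions, each with 1 library near 1 TPM. Of 13 partners and antagonists of BACH2, 12 were tested, 7 with a higher and 5 with a lower mean with UVB, a median of 0.16 log2 and none past the test. Batf, an activator of effector T cell genes, was at 545.1 and 1050 TPM in the UVB libraries against 526.2 and 878.5 TPM in the non-UVB libraries.

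Tissue residency and effector genes, a state set against the naive one, reached 1 TPM for 22 and 22 of 24 listed genes with UVB, against 19 and 20 without UVB. Itga1 and Zfp683 were listed at 0 in all 4. Of the 24, 22 were tested, 10 with a higher and 12 with a lower mean with UVB, a median of -0.11 log2 and none past the test. Id2, a factor of effector and resident lymphocytes, was at 3294 and 1728 TPM in the UVB libraries against 3145 and 1170 TPM in the non-UVB libraries. Cxcr6, a chemokine receptor of resident T cells, was at 2499 and 132.5 TPM in the UVB libraries against 3557 and 414.4 TPM without UVB, and Tnfrsf4, the costimulatory receptor OX40, at 784.4 and 2182 TPM in the UVB libraries against 709.5 and 3472 TPM without UVB. Cxcr6 was higher and Tnfrsf4 lower in both libraries numbered 1. Summed, the list had 12855 and 11448 TPM in the UVB libraries against 15441 and 12670 TPM in the non-UVB libraries.

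**Figure D5:**
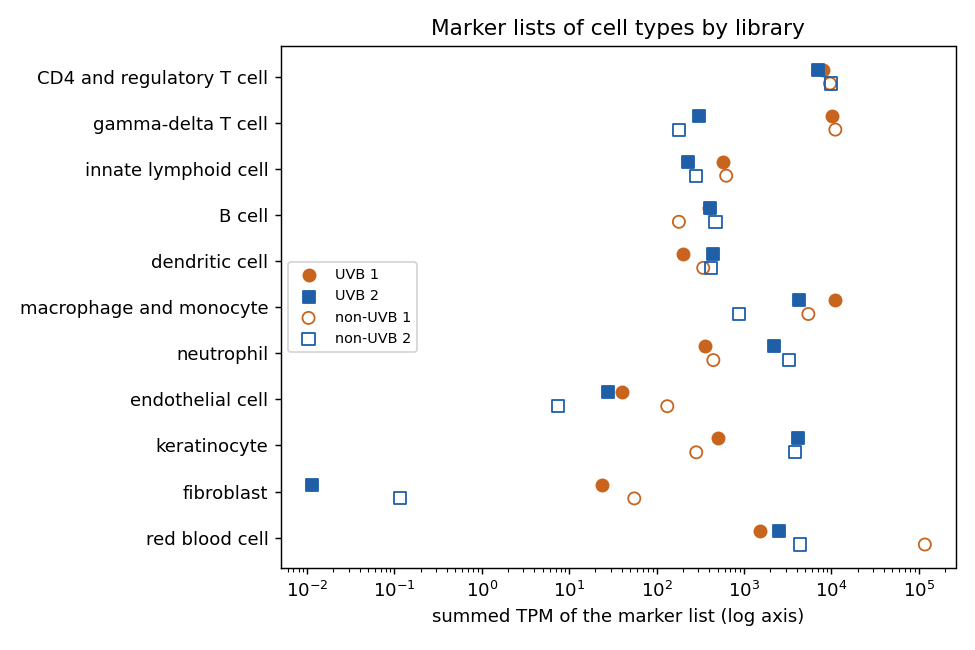
Summed TPM on a log axis for the marker lists of cell types above 0 in every library; filled symbols are UVB, open symbols non-UVB, circles number 1 and squares number 2. Gamma-delta T cell, macrophage and keratinocyte markers differ by number, macrophage markers are higher with UVB within each number, and red blood cell markers are highest in non-UVB replicate 1.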

How the data were processed

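Gene abundance tables of 4 mouse libraries were used. Per the labels' protocols, total RNA was made into libraries with an ultra-low-input SMARTer kit and read as single ends of 100 bp. The submitters' processing notes name HISAT2, StringTie and DESeq2 and the build GRCm38 (mm10), without versions or roles. Per the file headers, each deposited table gives coverage, the mean read depth per base, FPKM, which is scaled for gene length and library, and TPM, which has the same total in every library. No read counts were used, and no counting interval is given.

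Rows of 1 gene ID were summed. Genes at 1 TPM or more in at least 2 libraries were compared on log2(TPM + 1) with limma 3.58.1 (R 4.3.3), with an intensity trend and Benjamini-Hochberg adjustment over all tested genes, with a threshold of 0.05. The step was tested on simulated data. Recovery of changed genes was required there only at a spread far below that of these libraries. How many differences the test would miss here is therefore not known. Fits used group, or replicate number, as the only term. Reads behind FPKM came from the highest ratio of coverage to FPKM, and exon lengths from GENCODE M21. Reads of single-transcript genes are coverage times exon length over 100 bp, so they are approximate. The members and lists were chosen with earlier results of these data known. Named genes were the 9 members and up to 3 of the most abundant per direction in each list. The 3 closest patterns to each member with a mean of at least 20 TPM were also named. Predicted, Rik, mitochondrial, ribosomal protein, immunoglobulin and receptor segment genes were left out of these patterns. Other named genes, such as Foxp3, Il6st, Bcl2 and the overlapping genes, fall outside this rule. They were named with the values known, which is said beside only some of them. Alternatives changed the pseudocount, filter, unit, scaling, gene total, spread model and block, or dropped 1 library at a time. The values of 1 further gene of these lists are not reported here.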

Additional observations from a re-analysis of the deposited data

How the results depend on the processing

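No member passed an adjusted p of 0.05 under any of 16 alternatives for either comparison (limma), and 194 of 210 member values kept their direction. For UVB, S1pr1 ranged from 2.77 to 5.49 log2, Il6ra from -5.99 to -1.86 and Tcf7 from 0.49 to 3.85, the extremes of S1pr1 and Il6ra coming with pseudocounts of 5 and 0.1. With 1 library left out, the difference with UVB ran from -2.92 to 1.36 for Ccr7, from -1.11 to 0.87 for Klf2, from -0.020 to 0.34 for Satb1 and from -1.99 to 0.14 for Il7r. That between the numbers ran from -0.66 to 3.79 for S1pr1, from -3.41 to 0.83 for Tcf7, from -0.039 to 0.34 for Satb1, from -1.58 to 1.35 for Il7r and from -2.23 to 1.43 for Il6ra. The sign with UVB turned for Ccr7 without UVB replicate 1 (0.17) or non-UVB replicate 2 (1.36), for Klf2 without non-UVB replicate 2, for Il7r without UVB replicate 1 (0.022) or non-UVB replicate 1 (0.14), and for Satb1 without UVB replicate 2. The cause was not tested. Il6ra could not be tested without either non-UVB library, since it then failed the filter. Between the numbers Il6ra turned to 0.55 with a pseudocount of 0.1, and scaling to the sum of Cd3d, Cd3e and Cd3g, chosen after seeing the data, gave 0.58 for Il6ra, 1.16 for Il7r, 1.43 for Satb1, 2.39 for Klf2, 4.37 for Ccr7, 2.45 for S1pr1 and -0.56 for Tcf7. The median of all genes with UVB was 0.26 log2, and -0.19 after quantile normalization, where S1pr1 was 3.12 and Il6ra -4.04. Over all genes, 0 were called with UVB under every setting. Between the numbers 0 were called, but 12 with the filter of 1 TPM in all 4 libraries and 13 after quantile normalization. Genes at an unadjusted p under 0.05 numbered 1167 with UVB (33 to 1577 under the alternatives, where 62 and 33 were left on dropping UVB replicate 1 or 2) and 1290 between the numbers (339 to 2352, where 339 and 489 were left on dropping non-UVB replicate 1 or 2). With the replicate number as a block, 0 genes were called and 1110 had an unadjusted p under 0.05 with UVB, and S1pr1 stood at an adjusted p of 0.375 and Il6ra at 0.342. Same-numbered libraries deviated together with a correlation of 0.165 over 10286 genes, and no label says what a number stands for.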
